A study of Mus musculus with 12 samples.

Results

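Time without added hormone was followed from 6 to 24 h in the untreated libraries of C17.2 cells, an immortalised neural progenitor line from mouse cerebellum. They were the 6 untreated libraries of 12, picked by their labels, and the 24 h libraries (n = 2) were compared with the 6 h and 12 h libraries (n = 4). The C17.2a line stably expressed a tagged thyroid hormone receptor alpha and the C17.2b line a tagged receptor beta, and each line gave 1 library per time. The other 6 libraries had the same lines and times with T3, the active thyroid hormone, at 1e-07 M. All 12 were made from cells that had spent 24 h without serum before the 6, 12 or 24 h began, and the labels do not say whether the medium stayed free of serum afterwards. Nor do they say whether a line was 1 clone, what drove the receptor, or whether libraries came from separate cultures, so p-values measure only the spread between these libraries. In each line the receptor was present in the untreated cells too.

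Serum carries growth factors, lipids and steroid and thyroid hormones, and its removal is a standard way to slow cultured cells and to lower hormone signalling before a ligand is added. Cells without serum usually alter the genes of the division cycle, of sterol synthesis and of nutrient sensing. Sterol synthesis is driven by SREBP2, which moves to the nucleus when membrane cholesterol is low. ATF4 drives amino acid transport and synthesis when amino acids are scarce or translation initiation is restrained, and HSF1 and the unfolded protein response drive the chaperones of the cytosol and of the endoplasmic reticulum.

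Digital gene expression counts 1 short sequence tag per transcript, and the unit is RPM, a scale on which every library has 1 common total. Several symbols of the table carried 1 tag between them, which showed what was counted. In all 12 libraries, 121 symbols in 40 groups agreed within 2% with the other symbols of their group. Of the 37 groups with members matched to the GENCODE M21 transcripts of GRCm38, 30 (81.1%) shared a 21-base tag that starts at CATG and 20 (54.1%) one that starts at GATC. The first alone accounted for 12 groups and the second alone for 2, so tags are printed here from CATG on. The enzyme is not named in the labels, and each tag is the annotated transcripts' prediction, not a read.

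The tags that the largest shifts turned on are shown with the CATG site in capitals. First come those that several symbols shared, which ran into the poly(A) tail or into a repeat, and then those of single genes.
Tail tag, 7 symbols: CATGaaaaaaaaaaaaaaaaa
Repeat tag, 5 of 6 symbols: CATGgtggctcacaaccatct
Repeat tag, line-dependent genes: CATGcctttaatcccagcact
Eif4g1: CATGaattcaattaaaaaaaa
Dnalc1: CATGttattttataaaaaaaa
Ptpn9: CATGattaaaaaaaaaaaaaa
S100a11: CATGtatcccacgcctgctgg
Lss: CATGttctgaagtagaaataa
Plk1: CATGtctgggtgtgggtttac
Unc45a: CATGctgggagcatcatcaga
Arpc1a: CATGaggaacaggactgagcg
Lrrn4cl: CATGatcttgtttaattccat

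The 7 symbols of the tail tag included Cdyl2, Cxxc5, Cyb5rl, Dlx5, Lingo1 and Rassf4, and 930 of 55341 annotated genes could yield it. The last annotated bases of 5 of them place the site at the start of the tail, with capitals on the site.
Cdyl2: aaaaaaacagaagaaCATGa
Cyb5rl: gacaagtctttcctgcCATG
Dlx5: ataaaattatttcgacCATG
Lingo1: tgtaaagcgctgtgcaCATG
Rassf4: aaaattagcaataaatCATG
Each of the 7 symbols was listed at 1856, 2639 and 335.77 RPM in C17.2a and at 2385, 2283 and 667.67 RPM in C17.2b after 6, 12 and 24 h, as deposited. Both 24 h libraries lay below all earlier ones. Alox8, Aoc2, Cd163, Cnr2, Lrrc20 and Slamf8 shared values, and 5 of the 6 hold the repeat tag in the annotation, where it is found in 350 genes and is known from B2 short interspersed repeats. Their values went the other way, from 29.03 and 23.38 to 65.46 RPM in C17.2a and from 27.26 and 24.76 to 65.53 RPM in C17.2b. These values cannot be assigned to any 1 of the genes named.

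A total of 47 symbols with at least 50 RPM followed the tail tag over the 12 libraries, with an SD of at most 0.25 of the log2 ratio to it. They made up 15.3%, 21.3% and 2.96% of the C17.2a libraries at 6, 12 and 24 h, and 19.2%, 18.5% and 5.74% of the C17.2b libraries. All 47 were lower at 24 h after rescaling, by a log2 fold change between -3.08 and -2.35 with a median of -2.69. A transcript ending in a tail tag was annotated for 22 of the 47 (46.8%), against 985 of 12650 matched symbols (7.79%).

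**Figure D1:**
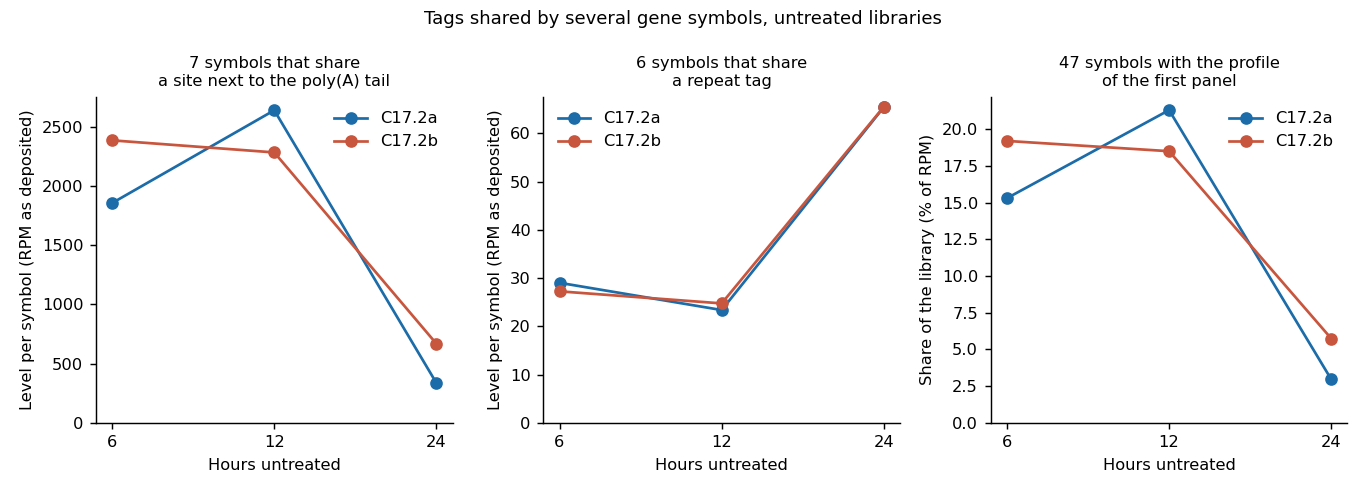
Levels of tags shared by several symbols against hours untreated in C17.2a (blue) and C17.2b (red), 1 library per point. The tail tag (left, RPM per symbol) is at 335.77 and 667.67 RPM at 24 h, the repeat tag (middle) at 65.46 and 65.53 RPM, and the 47 symbols that follow the tail tag (right, percent of the library) at 2.96% and 5.74% in C17.2a and C17.2b.

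A library in which such tags take a smaller share has higher RPM for all other genes, so libraries were rescaled by the median ratio over 10897 symbols before any test. The divisors were 0.855 to 0.955 for the 4 earlier libraries, 1.318 for C17.2a at 24 h and 1.213 for C17.2b at 24 h, a shift of 0.51 on the log2 scale. The 100 most abundant symbols held 38.8% to 42.6% of the earlier untreated libraries and 32.5% to 33.4% of those at 24 h. Depth, read from the size of 1 tag, was 1.11e+07 to 1.9e+07 tags in the earlier untreated libraries and 7.37e+06 to 9.79e+06 at 24 h, where 3 tags are worth 0.306 to 0.407 RPM. Levels below are rescaled RPM, and fold changes refer to log2(rescaled RPM + 1), which understates the change of low genes.

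The change at 24 h also moved with the bases of the tag. Across 10097 genes with a tag, Spearman's rho between the log2 fold change at 24 h and the number of G and C bases among the 17 after the site was 0.44, and it was -0.04 for 12 h against 6 h. These genes share libraries and are not independent replicates. Genes with 1 such base had a median log2 fold change of -0.57 and those with 14 or more a median of 0.83. Within single libraries rho between tag G and C and the deviation from the gene's mean was 0.42 and 0.35 in the untreated 24 h libraries of C17.2a and C17.2b, -0.31 to -0.23 in the earlier untreated ones, and 0.38 and -0.03 in the T3 24 h libraries of C17.2b and C17.2a. Composition of the tag, library preparation and time cannot be told apart in this design, so the gene groups below are given also after the median deviation of each G and C class was taken out of each library. After that step rho was -0.01. Counts of a group are read against all genes, of which 27.6% were higher and 29.4% lower, or 24.8% and 25.4% after this adjustment.

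**Figure D2:**
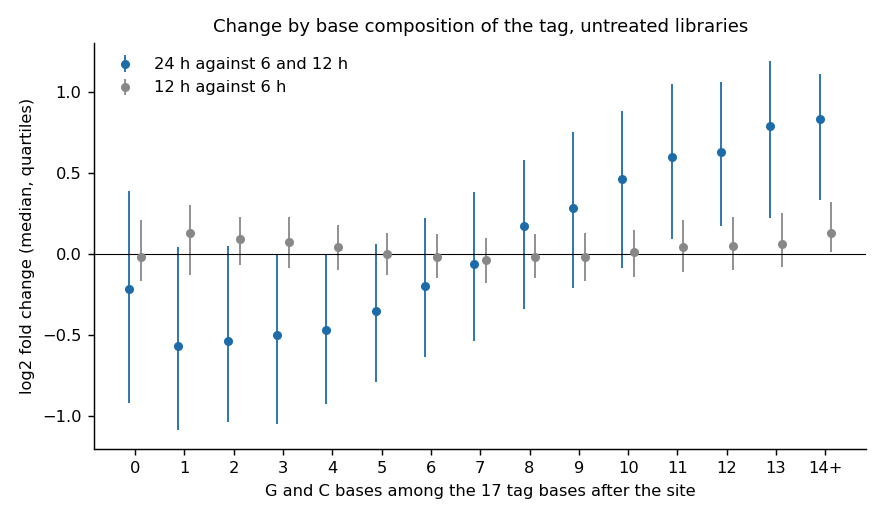
Log2 fold change (points, medians, with bars from the lower to the upper quartile over genes) against the number of G and C bases in the tag, for 24 h against 6 and 12 h (blue) and 12 h against 6 h (grey). The 24 h medians climb from -0.57 at 1 base to 0.83 at 14 or more, while those of 12 h against 6 h stay between -0.04 and 0.13.

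The cells themselves carried the markers of the label in part. Of 10 neural progenitor markers, 9 were in the table and 7 had at least 1 RPM in all 6 untreated libraries, with Vim the most abundant in each. The summed level of the progenitor markers as deposited was 2392 to 3194 RPM before 24 h and 5715 to 5816 RPM at 24 h. Vim and Nes carried this rise. Sox2, Msi2 and Prom1 were lower at 24 h in both lines, while Sox9, Msi1 and Slc1a3 were higher, at up to 6.53 RPM. The collagens Col1a1, Col1a2 and Col3a1 were abundant too, and 7 fibroblast markers summed to 2647 to 5399 RPM before 24 h and 4594 to 8120 RPM at 24 h, with the fibroblast surface gene Thy1 at 0 to 0.41 RPM and Lum not in the table. The oligodendrocyte lineage factor Sox10 was also high, and the 6 markers of that lineage summed to 463 to 863 RPM before and 310.5 to 413 RPM at 24 h, with Mog and Olig1 not in the table. Of 9 neuronal markers 5 were in the table, and they summed to 103.5 to 150.3 RPM before and 217 to 369.8 RPM at 24 h. The astrocyte markers summed to 174 to 261 RPM before and 172 to 182 RPM at 24 h, nearly all of it Gja1 and S100b. Gfap was at 0.94 to 1.52 RPM. Of 7 blood and endothelial markers 1 was in the table, at up to 0.07 RPM. In bulk RNA fewer cells of a type and less RNA per cell cannot be told apart.

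At 24 h most tested genes passed the test, in like numbers up and down after rescaling. Of 10192 genes tested with limma, 5812 (57.0%) passed an adjusted p of 0.05, 2811 (27.6%) higher and 3001 (29.4%) lower, and 2225 of all tested genes differed by at least 2-fold on the fitted scale. On RPM as deposited, 4955 (48.6%) were higher and 1427 (14%) lower, so that 77.6% of the calls were higher against 48.4% after rescaling. RPM recomputed without the 47 symbols of the tail tag gave 4002 higher and 2023 lower. After the adjustment for tag G and C 2530 (24.8%) were higher and 2585 (25.4%) lower, and 4065 of the 5812 calls were kept. Both 24 h libraries lay above all 4 earlier ones for 29.6% of genes and below them for 31.0%. Without the C17.2a 24 h library 3674 genes passed.

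The step from 6 to 12 h was far smaller. With limma no gene of 10192 passed at 12 h against 6 h (0%), 598 had an unadjusted p under 0.05, and the SD of the log2 fold changes over genes was 0.26, against 0.83 at 24 h. Quantile normalization and RPM as deposited also gave 0. The smallest p-values belonged to H1f0, a linker histone, Ly6a, a surface antigen, Dbp, a clock output factor, Pole, a DNA polymerase, and Brca1, a repair gene. Dbp was at 6.07 and 17.4 RPM in C17.2a and at 5.25 and 20.9 RPM in C17.2b at 6 and 12 h, a log2 difference of 1.59 with an adjusted p of 0.421 in the limma fit. Without the C17.2b 6 h library 81 genes passed, all of them higher at 12 h.

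All 30 genes of G2 and mitosis were higher at 12 h than at 6 h in both lines, with a median log2 difference of 1.17 and a range of 0.10 to 1.77, where the median of all genes was 0.00. None of the 30 passed the limma test (0%), and 27 had an unadjusted p under 0.05, against 5.87% of all genes. Of the 81 genes that passed without the C17.2b 6 h library, 22 were of this list and 6 of the S phase list. The list's median level was 5.62, 23.55 and 32.55 RPM in C17.2a at 6, 12 and 24 h and 23.5, 39.5 and 45.85 RPM in C17.2b, so the step from 6 to 12 h was the larger one in each line.

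At 24 h against the mean of 6 and 12 h, 9 of the 30 were higher and 0 lower, with a median of 0.59, and 6 were higher and 1 lower after the adjustment for tag G and C (median 0.60). Every one of the 30 was above its 6 h level at 24 h in C17.2a, and 19 of 30 were in C17.2b. The share that was higher is near the 27.6% of all genes, and the share that was lower is under the 29.4%. Plk1, the kinase that drives entry into and progress through mitosis, was at 2.26 and 10.6 RPM at 6 and 12 h and at 73.9 RPM at 24 h in C17.2a, and at 11.7, 18 and 80.9 RPM in C17.2b. Both 24 h libraries lay far above all earlier ones. Its log2 fold change of 3 (SE 0.47, limma adjusted p = 0.00081) was the highest of the genes named by size. Kif23, a kinesin of the midbody, went from 0.733 and 3.64 to 18 RPM in C17.2a and from 3.44 and 6.31 to 16.9 RPM in C17.2b (log2 2.20, SE 0.41, limma adjusted p = 0.0021). Cenpa, the histone that marks centromeres, rose by 1.57 (SE 0.35) and Prc1, which bundles the central spindle, by 0.83 (SE 0.12). The predicted tag of Cenpa, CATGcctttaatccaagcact, is annotated for 1 gene but closely resembles the repeat tag of the line-dependent genes shown above.

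Other members were lower at 24 h than at 12 h. Cdk1, the kinase of mitotic entry, was at 135, 665 and 208 RPM in C17.2a and at 444, 582 and 374 RPM in C17.2b, so that its 24 h value lay between the earlier ones in C17.2a and below both in C17.2b. Ccna2, the cyclin A gene, was at 35.7, 190.1 and 63.2 RPM in C17.2a and at 180.3, 248 and 126 RPM in C17.2b, and neither Cdk1 nor Ccna2 passed the test (limma adjusted p = 0.433 and 0.381). Ccnb1, the cyclin B1 gene, was instead at 5.83, 24.0 and 44.7 RPM in C17.2a and 35.8, 58.4 and 69.3 RPM in C17.2b, in the order of time in both lines, with a limma adjusted p of 0.0594. Against 12 h alone 5 of the 30 were higher and 7 lower (median 0.03), beside 2462 and 2726 of all 10192 genes. Against 6 h alone 18 were higher and 0 lower (median 1.15), beside 2472 and 2682 of all genes. Without the C17.2a 6 h library the counts were 11 higher and 8 lower (median 0.18), beside 2670 and 2891 of 10062 genes. Without the C17.2a 24 h library, which leaves 1 library at 24 h, the median was 0.23, and Cenpa and Kif23 no longer passed.

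The genes of DNA replication moved in both directions. Of 29, 5 were higher and 10 lower at 24 h, with a median of -0.06, beside 27.6% and 29.4% of all genes. After the adjustment for tag G and C 5 were higher and 5 lower (median -0.19). On RPM as deposited 10 were higher and 5 lower (median 0.38), beside 4955 and 1427 of all 10192 genes (median 0.44). The direction also depended on the earlier time, with 7 higher and 5 lower against 6 h alone (median 0.26) and 3 higher and 12 lower against 12 h alone (median -0.58). Of all 10192 genes 2472 were higher and 2682 lower against 6 h alone, and 2462 and 2726 against 12 h alone. Like the mitotic genes, these were mostly higher at 12 h than at 6 h, 29 of 29 in C17.2a and 23 of 29 in C17.2b (median 0.60). In that limma test 0 of them passed, and 16 had an unadjusted p under 0.05, against 5.87% of all genes. Pcna, the sliding clamp, was at 285, 639 and 152 RPM in C17.2a and at 390.5, 499.8 and 243 RPM in C17.2b, below all earlier libraries in both lines, and fell by 1.17 on the log2 scale (SE 0.30, limma adjusted p = 0.00904). Cdt1, which licenses origins, and Ccne2, a cyclin of S phase entry, fell by 1.55 (SE 0.31) and 1.62 (SE 0.24). Mcm5, a subunit of the replicative helicase, went from 21.5 and 54.6 to 74.9 RPM in C17.2a and from 32.1 and 46.7 to 95.0 RPM in C17.2b (log2 1.19, SE 0.32, limma adjusted p = 0.0114), and Tk1, thymidine kinase, rose by 1.63 (SE 0.39). Subunits of 1 helicase thus did not share a direction, since Mcm7 fell by 0.86 (SE 0.27). Without the C17.2a 24 h library, which leaves 1 library at 24 h, the median of the 29 was -0.18.

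**Figure D3:**
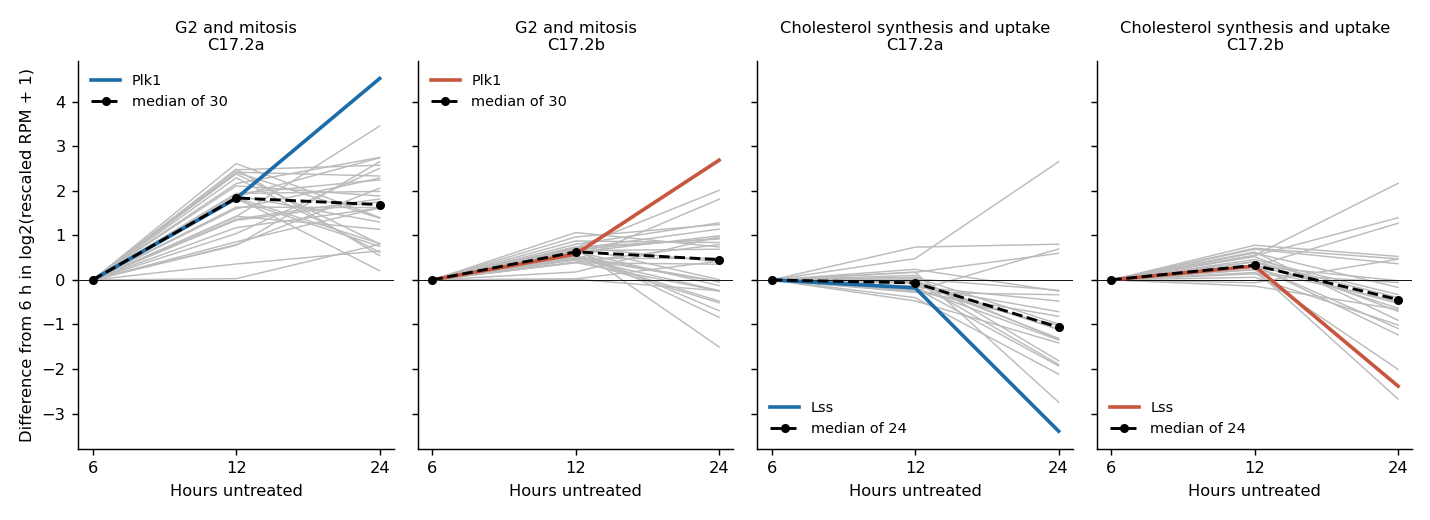
Difference from the 6 h library in log2(rescaled RPM + 1) against hours untreated, 1 line per gene, for the 30 G2 and mitosis genes and the 24 cholesterol genes in C17.2a and C17.2b. The dashed line is the list median and the coloured line is Plk1 or Lss. All mitotic genes lie above 0 at 12 h, and cholesterol genes fan downwards at 24 h.

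Genes of cholesterol synthesis were mostly lower at 24 h. Of 24 members, 15 were lower and 3 higher, with a median log2 fold change of -0.82, where 29.4% of all genes were lower and their median was 0.00. The list kept this direction on RPM as deposited (11 lower and 4 higher, median -0.34). On that scale 1427 of all 10192 genes were lower and 4955 higher (median 0.44). The direction also held after the adjustment for tag G and C (12 lower and 2 higher, median -0.52). The median number of G and C bases in the tags was 7 in the list and over all genes. In the T3 libraries, which share no sample with these, 13 were lower and 1 higher (median -0.82).

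Lss, lanosterol synthase, was at 239 and 211 RPM before 24 h and at 21.8 RPM at 24 h in C17.2a, and at 162, 201 and 30.2 RPM in C17.2b. The groups were far apart, and the gene was 7.60-fold lower (log2 -2.93, SE 0.18, limma adjusted p = 3.32e-05). Sqle, squalene epoxidase, went from 134 and 118 to 34.4 RPM in C17.2a and from 103 and 121 to 15.3 RPM in C17.2b (log2 -2.31, SE 0.20, limma adjusted p = 6.5e-05). Sc4mol, the sterol C4 oxidase now called Msmo1, fell by 2.46 (SE 0.18), and Hmgcs1, which makes the precursor HMG-CoA, by 1.56 (SE 0.17).

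Regulators of the pathway did not follow these enzymes. Srebf2, the gene of SREBP2, went from 5.90 and 8.62 to 42.4 RPM in C17.2a and from 6.45 and 9.93 to 32.5 RPM in C17.2b (log2 2.15, SE 0.23, limma adjusted p = 0.000118), with all earlier libraries below both later ones. Insig1, which holds SREBP in the endoplasmic reticulum and is itself an SREBP target, rose by 0.97 (SE 0.14, limma adjusted p = 0.00062). Without the C17.2a 24 h library the median of the list was -0.60, and without the C17.2b 24 h library it was -1.05, each with 1 library left at 24 h.

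Fatty acid synthesis was split. Fasn, fatty acid synthase, went from 47 and 57.7 to 161 RPM in C17.2a and from 49.4 and 55.9 to 149 RPM in C17.2b (log2 1.55, SE 0.13, limma adjusted p = 5.62e-05), and Scd2, a desaturase, rose by 1.6 (SE 0.18). Acly, which supplies acetyl-CoA, went the other way, from 1066 and 1258 to 339 RPM in C17.2a and from 853 and 889.9 to 384 RPM in C17.2b (log2 -1.48, SE 0.17, limma adjusted p = 0.000169), and Dgat2, the last step of triglyceride synthesis, fell by 1.35 (SE 0.13). Of 19 members 4 were higher and 6 lower, and 4 and 5 after the adjustment for tag G and C, beside 27.6% and 29.4% of all genes.

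Promoters were read for 2 genes of these lists that show the motif searched, from RefSeq on GRCm38.p6, 250 bases before to 50 after the start, with the motif in capitals. Each motif was searched on both strands. TTTGAA, the core of the cell cycle homology region, was found in 18 of the 24 G2 and mitosis genes with a promoter in the table (75%) and in 20.2% of 27025 genes, and TCACNCCAC, a sterol regulatory element, in 1 of 17 cholesterol genes (5.88%) and in 1.44% of all. A match is a run of letters and not a known site. Motifs were counted over all members of a list, whatever their direction, and the lists were drawn up by known function. The shares therefore do not bear on the change at 24 h.
Plk1, chr7:122159185-122159484, plus strand: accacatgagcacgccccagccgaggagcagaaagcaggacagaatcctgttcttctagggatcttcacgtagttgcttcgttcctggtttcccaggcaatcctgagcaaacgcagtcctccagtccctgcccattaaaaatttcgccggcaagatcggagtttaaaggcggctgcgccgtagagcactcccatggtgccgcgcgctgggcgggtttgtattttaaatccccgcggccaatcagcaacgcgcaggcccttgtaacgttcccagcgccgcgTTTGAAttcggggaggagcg
Hmgcs1, chr13:119690101-119690400, plus strand: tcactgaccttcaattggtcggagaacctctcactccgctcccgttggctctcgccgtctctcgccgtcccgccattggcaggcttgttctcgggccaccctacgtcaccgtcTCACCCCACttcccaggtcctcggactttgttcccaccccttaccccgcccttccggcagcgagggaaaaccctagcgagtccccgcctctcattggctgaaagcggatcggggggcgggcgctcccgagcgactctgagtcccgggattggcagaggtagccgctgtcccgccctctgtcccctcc

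Of 24 targets of ATF4, 12 were higher and 4 lower at 24 h, beside 27.6% and 29.4% of all genes, with a median of 0.53, and 11 were higher and 3 lower after the adjustment for tag G and C. On RPM as deposited 18 were higher and 1 lower, where 48.6% of all genes were higher. Phgdh, the first enzyme of serine synthesis, went from 229 and 233 to 696 RPM in C17.2a and from 192 and 194 to 568 RPM in C17.2b (log2 1.57, SE 0.11, limma adjusted p = 3.36e-05). Shmt2, the mitochondrial serine hydroxymethyltransferase, went from 43.9 and 54.9 to 209 RPM and from 49.3 and 53.8 to 202 RPM (log2 2.01, SE 0.13, limma adjusted p = 3.32e-05). For both genes the 24 h libraries stood clear of all earlier ones, but the tag of Phgdh is annotated for 10 genes. Chac1, which degrades glutathione, rose by 2.26 (SE 0.18), and Slc3a2, the heavy chain of the amino acid exchangers, by 1.55 (SE 0.13).

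Within the same list Asns, asparagine synthetase, fell, from 685 and 1044 to 406 RPM in C17.2a and from 987 and 892 to 568 RPM in C17.2b (log2 -0.89, SE 0.19, limma adjusted p = 0.00383). So did Psat1, the enzyme after Phgdh in serine synthesis (log2 -0.76, SE 0.18). The signs listed for these neighbouring steps were opposite, but the value of Phgdh, with a tag annotated for 10 genes, cannot be assigned to it alone. After the adjustment for tag G and C Asns and Psat1 no longer passed (limma adjusted p = 0.101 and 0.0908), while Phgdh did (log2 1.43). The motif TGATGNAA, as in a composite ATF4 element, was in 7 of the 22 promoters of the list (31.8%) and in 4.51% of all. The list was drawn up as targets of ATF4, so this share does not bear on the change at 24 h. Without the C17.2a 24 h library, which leaves 1 library at 24 h, the median of the list was 0.41.

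Heat shock chaperones, a list that holds cytosolic and mitochondrial members, were mostly lower. Of 18 heat shock chaperones, 11 were lower and 3 higher, beside 29.4% and 27.6% of all genes, with a median of -0.67. After the adjustment for tag G and C 9 were lower and 2 higher, beside 25.4% and 24.8%. On RPM as deposited 4 were lower and 6 higher, beside 1427 and 4955 of all 10192 genes. The list median was -0.16 on that scale, under the 0.44 of all genes. Hsp90aa1, the inducible HSP90, went from 978 and 1223 to 306 RPM in C17.2a and from 1084 and 1070.2 to 328 RPM in C17.2b (log2 -1.77, SE 0.14, limma adjusted p = 5.06e-05). Stip1, which links HSP70 to HSP90, fell by 1.47 (SE 0.14), Cryab, a small heat shock protein, by 1.35 (SE 0.22) and Dnajb4, an HSP40, by 1.09 (SE 0.13). The mitochondrial chaperone Hspa9 was the opposite, at 182, 193 and 282 RPM in C17.2a and 169, 185 and 263 RPM in C17.2b (log2 0.58, SE 0.11, limma adjusted p = 0.00248). The values of Hspd1 and Hspe1, also mitochondrial and in the list, are not reported here, so no split by compartment is read. The heat shock element GAANNTTC was in 8 of the 13 promoters (61.5%) and in 9.04% of all, a property of the list and not of its change at 24 h.

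Chaperones of the endoplasmic reticulum had 8 lower and 2 higher of 19, beside 29.4% and 27.6% of all genes, with a median of -0.48, and 7 lower and 3 higher after the adjustment for tag G and C (median -0.38). The sign of this median rests on the scaling, since on RPM as deposited it was 0.03 with 5 higher and 5 lower. All genes had a median of 0.44 on that scale, with 4955 of 10192 higher and 1427 lower. Hspa5, the chaperone BiP that reports the unfolded protein response, was at 1674, 1299 and 637 RPM in C17.2a and at 1557, 975 and 709 RPM in C17.2b, lower at each later time in both lines (log2 -1, SE 0.22, limma adjusted p = 0.0045). Canx, the lectin calnexin, fell by 1.35 (SE 0.13) and Dnajb9, a cochaperone of BiP, by 1.51 (SE 0.14). The disulphide isomerase Pdia3 went from 44.2 and 45.5 to 189 RPM in C17.2a and from 37.1 and 36.7 to 126 RPM in C17.2b (log2 1.90, SE 0.12, limma adjusted p = 3.32e-05).

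The p53 gene and its targets parted. Trp53 went from 34.2 and 39.0 to 105 RPM in C17.2a and from 36.2 and 37.8 to 91.6 RPM in C17.2b (log2 1.39, SE 0.12, limma adjusted p = 6.69e-05). Of 19 genes of the p53 list, which counts Trp53, 8 were lower and 3 higher (median -0.40), beside 29.4% and 27.6% of all genes, and 10 were lower and 1 higher after the adjustment for tag G and C. Ccng1, an early p53 target, went from 94.8 and 92.5 to 27.5 RPM and from 89.7 and 99.5 to 29.7 RPM (log2 -1.68, SE 0.11, limma adjusted p = 3.32e-05). Bbc3, the death gene Puma, fell by 1.90 (SE 0.15) and Mdm2, the ligase that degrades p53, by 1.03 (SE 0.11). On RPM as deposited 5 of the 19 were lower and 7 higher, beside 1427 and 4955 of all 10192 genes. The list median was -0.07 on that scale, under the 0.44 of all genes.

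Matrix genes were mostly higher. Of 27 genes of the extracellular matrix, 14 were higher and 4 lower, beside 27.6% and 29.4% of all genes, with a median of 0.54, and 16 were higher and 3 lower after the adjustment for tag G and C. Col5a1, a fibrillar collagen, went from 164 and 158 to 399.8 RPM in C17.2a and from 148 and 164 to 394 RPM in C17.2b (log2 1.32, SE 0.11, limma adjusted p = 5.92e-05). Tnc, the glycoprotein tenascin C, went from 36.0 and 55.2 to 139.7 RPM and from 79.3 and 119 to 221 RPM (log2 1.40, SE 0.22, limma adjusted p = 0.00081). In both genes all 24 h values were above all earlier values of either line. Col6a2 and Nid2, of microfibrils and of the basement membrane, each rose by 1.28 (SE 0.16 and 0.20), while Fn1, fibronectin, fell by 1 (SE 0.26), and was at 765, 862 and 629 RPM in C17.2a and at 440.3, 563 and 159 RPM in C17.2b. Loxl2, counted among the 14, shared the repeat tag and cannot be assigned.

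The binding proteins and receptors of insulin-like growth factors had 5 higher and 1 lower of 11, also after the adjustment for tag G and C, beside 27.6% and 29.4% of all genes, with a median of 0.43. Igfbp3, which holds the growth factors in the blood and matrix, went from 12.9 and 13.8 to 37.4 RPM in C17.2a and from 8.92 and 11.2 to 19.7 RPM in C17.2b (log2 1.16, SE 0.17, limma adjusted p = 0.00067). Igfbp7, a binding protein of low affinity, went from 858 and 1045 to 312 RPM and from 686 and 634 to 241 RPM (log2 -1.52, SE 0.14, limma adjusted p = 7.01e-05). Without the C17.2a 24 h library the median was 0.09.

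Lysosomal genes had 13 higher and 6 lower of 31, beside 27.6% and 29.4% of all genes, with a median of 0.27, and 13 higher and 5 lower after the adjustment for tag G and C. Lamp1, a main protein of the lysosomal membrane, went from 82.6 and 81.7 to 349 RPM in C17.2a and from 83.3 and 85.4 to 260.4 RPM in C17.2b (log2 1.85, SE 0.13, limma adjusted p = 3.36e-05). Hexa, a subunit of the hexosaminidase that degrades gangliosides, rose by 2.09 (SE 0.15), and Gaa, which degrades glycogen, by 1.51 (SE 0.15). Scarb2, also of the lysosomal membrane, was at 156, 156 and 72.9 RPM in C17.2a and at 196, 207 and 78.2 RPM in C17.2b and fell by 1.22 (SE 0.12).

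Immediate early genes, which serum switches on within minutes in resting cells, had 6 higher and 10 lower of 22, beside 27.6% and 29.4% of all genes, and 9 higher and 8 lower after the adjustment for tag G and C (median -0.11). Their median of -0.38 was 0.12 on RPM as deposited, where the median of all genes was 0.44. The list median thus lay under that of all genes on both scales, while the balance of calls rests on the tag adjustment. Fos, of the AP-1 factor, went from 59.0 and 51.3 to 12.8 RPM in C17.2a and from 107 and 94.3 to 23.9 RPM in C17.2b (log2 -2.02, SE 0.13, limma adjusted p = 3.32e-05). Ier2 did the reverse, from 5.34 and 6.86 to 36.1 RPM and from 7.12 and 6.93 to 22.2 RPM (log2 1.96, SE 0.22, limma adjusted p = 0.000153), and Ier3 rose by 1.52 (SE 0.16). Btg2, an antiproliferative gene that p53 also controls, was at 2764, 3619 and 495 RPM in C17.2a and at 3025, 3517 and 1022 RPM in C17.2b and fell by 2.17 (SE 0.25).

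Neural progenitor markers did not share a direction. Nes, the intermediate filament nestin, went from 116 and 139.6 to 487 RPM in C17.2a and from 128 and 140.2 to 365 RPM in C17.2b (log2 1.68, SE 0.15, limma adjusted p = 6.62e-05). Sox2, the factor that keeps neural stem cells undifferentiated, went from 195 and 220.3 to 78.8 RPM and from 352 and 325 to 123 RPM (log2 -1.41, SE 0.12, limma adjusted p = 5.27e-05). Id3, an inhibitor of differentiation factors, and Cd24a, a surface marker, fell by 1.38 (SE 0.13) and 1.37 (SE 0.15). Of 12 members 3 were higher and 6 lower, beside 27.6% and 29.4% of all genes, with a median of -0.69 that was -0.38 after the adjustment for tag G and C. The oligodendrocyte factor Sox10 was at 541, 407 and 165 RPM in C17.2a and at 859, 839 and 268 RPM in C17.2b and fell by 1.58 (SE 0.15, limma adjusted p = 7.57e-05). The sums of markers above are RPM as deposited, on which all genes had a median shift of 0.44. On that scale the neuronal sum was carried by Tubb3 and Map2, while Nefl, Nefm and Snap25 were lower at 24 h in both lines. Nefm was at 4.10, 3.29 and 2.45 RPM in C17.2a and at 6.02, 4.39 and 2.31 RPM in C17.2b, as deposited. The part of these cell types in the results was not tested.

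Genes whose products form 1 complex scattered at 24 h about as much as all genes, whose log2 fold changes had an SD of 0.83 at 24 h and of 0.26 for 12 h against 6 h. Cytosolic ribosomal proteins, made in equal amounts for the ribosome, had 25 higher and 17 lower of 73, beside 27.6% and 29.4% of all genes, with a median of 0.31, and the SD of their log2 fold changes was 0.91, against 0.23 for 12 h against 6 h. Rpl37a went from 481 and 569.9 to 3136 RPM in C17.2a and from 638 and 759 to 3178 RPM in C17.2b (log2 2.38, SE 0.17, limma adjusted p = 3.33e-05). Rpl22 went from 3289.8 and 4607 to 768 RPM and from 4076 and 4135 to 1139.7 RPM (log2 -2.09, SE 0.21, limma adjusted p = 9.49e-05). Both are proteins of the large subunit, and they lay on opposite sides of 0 in each line. The predicted tag of Rpl22, CATGgctaaaaaaaaaaaaaa, runs into the poly(A) tail and is annotated for 14 genes, and that of Rpl37a for 3, so neither value can be assigned to its gene alone. After the adjustment for tag G and C 18 were higher and 18 lower and the SD was 0.84. On quantile-normalized values 44 were higher and 4 lower, beside 2848 and 2910 of all 10192 genes. Many of these genes have near-identical pseudogenes, and a split of tags between copies was not tested.

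Oxidative phosphorylation genes had 15 higher and 9 lower of 32, and 13 and 9 after the adjustment for tag G and C, beside the same shares of all genes, with an SD of 1.02 at 24 h against 0.16 for 12 h against 6 h. Cox6b1, a subunit of cytochrome c oxidase, went from 2003 and 1994 to 394 RPM in C17.2a and from 2138 and 2221 to 534 RPM in C17.2b (log2 -2.18, SE 0.15, limma adjusted p = 3.32e-05). Of the ATP synthase, Atp5a1 fell by 1.83 (SE 0.13) and Atp5o rose by 1.48 (SE 0.12). Both subunits belong to 1 enzyme.

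**Figure D4:**
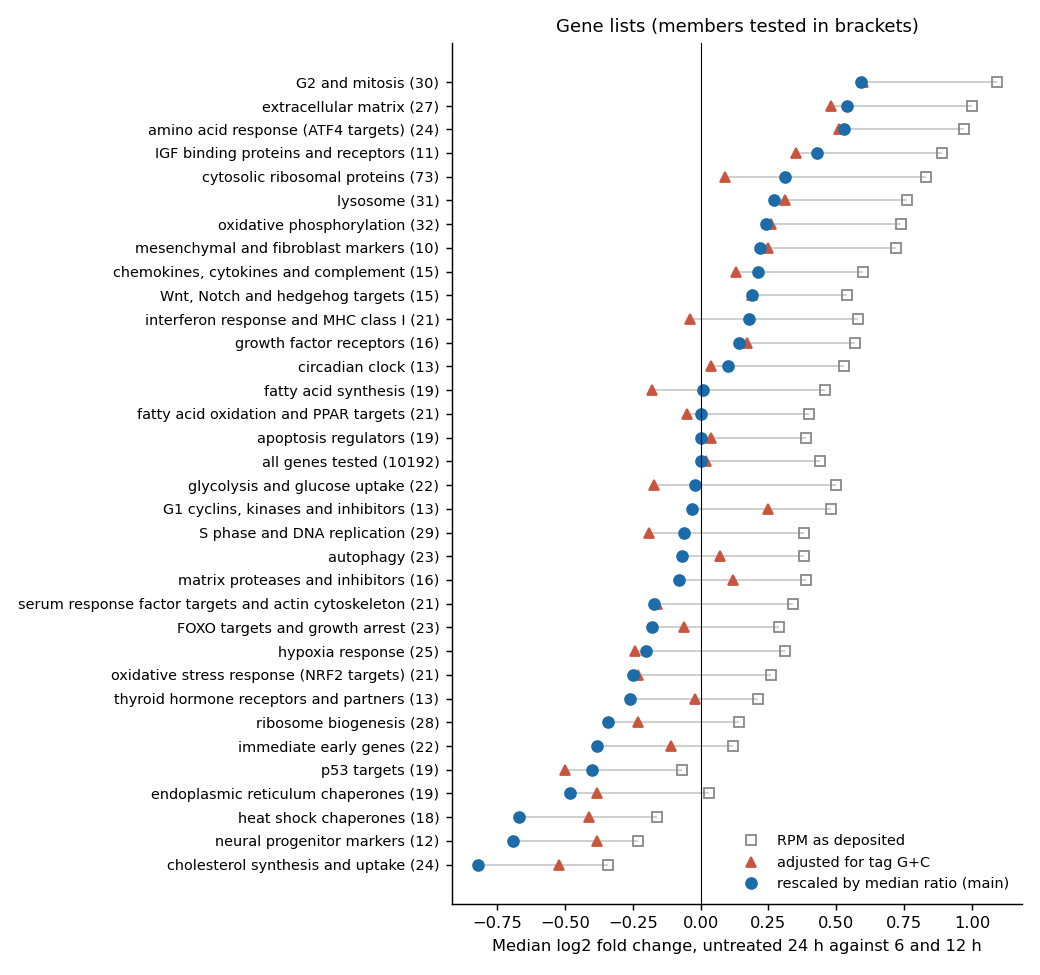
Median log2 fold change at 24 h of each gene list with at least 10 members tested, after rescaling (blue circles), after adjustment for tag G and C (red triangles) and on RPM as deposited (grey squares). Cholesterol genes are lowest at -0.82 and mitotic genes highest at 0.59, and the grey squares lie to the right because all genes shift by a median of 0.44 without rescaling.

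Among genes named by size, the 12 highest were between 5.86-fold and 8.02-fold up and the 12 lowest between 7.59-fold and 11.5-fold down. After Plk1 came Unc45a, a chaperone of myosin, at 5.01, 4.26 and 50.7 RPM in C17.2a and at 5.07, 5.17 and 35.3 RPM in C17.2b (log2 2.89, SE 0.19, limma adjusted p = 3.32e-05). Arpc1a, of the complex that branches actin, was at 16, 14 and 104 RPM and at 12.6, 16.7 and 86.8 RPM (log2 2.61, SE 0.15). Lrrn4cl, whose tag has 4 G and C bases after the site, was at 24.0, 21.2 and 124 RPM and at 16.8, 18.5 and 128 RPM (log2 2.60, SE 0.14). In each of these the earlier values were alike in both lines and the 24 h values stood apart. The others were Islr, Pde1b, Ckb, Sept9, Asb6, Rai1, Ppp1r14b and Cnn2.

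Of the 12 lowest, Eif4g1, the scaffold of cap-dependent translation initiation, was at 116, 217 and 9.91 RPM in C17.2a and at 169, 208 and 19.7 RPM in C17.2b (log2 -3.53, SE 0.25, limma adjusted p = 3.36e-05). Its tag ends in a run of A, as did those of 7 of the 12, and 4 of the 12 (Slc7a6os, Slc4a10, Cdk12 and Ptpn9) followed the tail tag, while 0 of the 12 highest had a run of 4 or more. S100a11, a calcium-binding protein, has a tag with 11 G and C bases and no run of A, and was at 213, 189 and 20.6 RPM and at 102, 108 and 11.1 RPM (log2 -3.18, SE 0.12, limma adjusted p = 1.1e-05). It fell by 3.76 after the adjustment for tag G and C. The others were Dnalc1, Mrps6, Epc1, Mcee, Slc7a6os, Slc4a10, Cdk12, Ptpn9, Lss and Siglecg. All 24 kept their sign and passed after that adjustment.

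Over all genes, tags ending in 0 to 2 A (n = 9096) had a median log2 fold change of 0.03, and those ending in 3 to 5 (n = 458), 6 to 9 (n = 190) and 10 to 17 A (n = 353) had medians of -0.31, -0.21 and -0.24. Of the last class 36.8% were lower and 18.4% higher. On RPM as deposited, genes that were all but off before 24 h were few. Lipe, hormone-sensitive lipase, was at 0.70 and 0.71 RPM and then 6.12 RPM in C17.2a and at 0.52, 0.27 and 5.43 RPM in C17.2b, and Arhgap33, a GTPase-activating protein, at 0.77, 0.98 and 5.82 RPM and at 0.63, 0.63 and 5.15 RPM, as deposited. No gene did the reverse, from at least 5 RPM in all 4 earlier libraries to under 1 RPM in both later ones. These limits were applied to RPM as deposited alone, on which all genes had a median log2 shift of 0.44 at 24 h. Whether either gene would meet them after rescaling was not tested.

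Few genes had a 24 h change that differed between the lines by the test. The limma test of the difference between the lines' 24 h changes called 14 of 10192 genes (0.137%), 6 (0.0589%) with a higher and 8 (0.0785%) with a lower change in C17.2b. Cav1, the coat protein of caveolae, was at 403, 392 and 696 RPM in C17.2a and at 342, 286 and 57.2 RPM in C17.2b, up in the one and down in the other (difference -3.24, SE 0.25, limma adjusted p = 0.0234). Rbm3, a cold-shock RNA-binding protein, was at 1013, 1158 and 490.1 RPM and at 1129.9, 1039 and 84.4 RPM (difference -2.52, SE 0.26), with a tag annotated for 3 genes. Of the 6 with a higher change in C17.2b, Camk4, Gad2, Hyal1, Mfsd4 and Veph1 moved as one, with Gad2 at 10.3, 9.86 and 2.25 RPM in C17.2a and at 6.84, 9 and 18.1 RPM in C17.2b, and 4 of these 5 hold the repeat tag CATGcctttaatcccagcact, found in 192 genes and known from B1 short interspersed repeats. The count ran from 0 without the C17.2b 6 h or 12 h library to 349 without the C17.2a 6 h library.

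The T3 libraries, which share no sample with the untreated ones, moved in the same direction for most genes called. With T3, 2975 of 10142 genes (29.3%) passed at 24 h against 6 and 12 h, 1391 (13.7%) higher and 1584 (15.6%) lower. On RPM as deposited 3111 (30.7%) were higher and 827 (8.15%) lower. Of 9987 genes tested in both, 2568 passed in both, which is 44.6% of the untreated and 86.8% of the T3 calls, and 2562 of them (25.7% of the 9987) had 1 direction. Of the untreated calls 90.0% had the same sign with T3. Over these genes Pearson's r was 0.79 and Spearman's rho 0.76, as a description, since genes are not independent replicates and both sets share lines and times. Without the C17.2a T3 24 h library the share with the same sign was 96.3% and r 0.88. Plk1 went from 1.96 and 9.13 to 88.6 RPM in C17.2a and from 10.4 and 20.9 to 52.0 RPM in C17.2b with T3, and Lss from 219.9 and 169 to 37.7 RPM and from 129 and 201 to 21.7 RPM. Of the 24 genes named by size, 23 passed in the T3 libraries too, all except Cnn2.

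**Figure D5:**
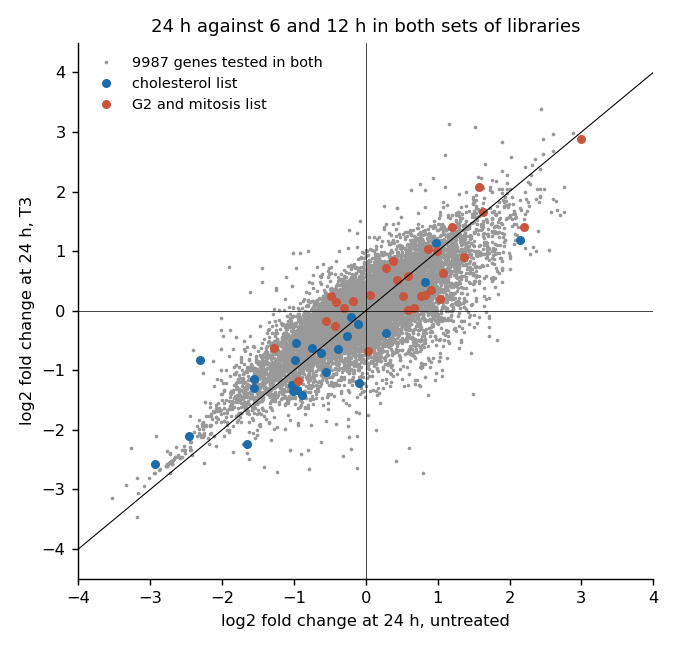
Log2 fold change at 24 h against 6 and 12 h with T3 (vertical) against that in untreated cells (horizontal) for 9987 genes (grey), with cholesterol genes in blue, mitotic genes in red and a line of equal change. The cloud runs from lower left to upper right with r = 0.79, and most blue points lie left of 0.

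The difference between the T3 and the untreated change at 24 h was called for 0 of 10577 genes (0%) with limma, and 1383 had an unadjusted p under 0.05. That fit held no term for pairs of T3 and untreated libraries of the same line and time. Quantile normalization called 1. Clic1, Cript, Ssr2 and Angptl4 were among the genes with the smallest p-values. Clic1, an intracellular chloride channel protein, was at 58.4, 54.9 and 82.3 RPM in untreated C17.2a and at 53.7, 57.7 and 7.52 RPM with T3, and at 60.4, 27.1 and 65.0 RPM against 39.3, 43.3 and 10.4 RPM in C17.2b (difference -2.91, limma adjusted p = 0.0992). Angptl4, a lipoprotein lipase inhibitor, was at 92.0, 116 and 179.6 RPM untreated and 63.3, 78.0 and 266 RPM with T3 in C17.2a, and at 56.4, 54.6 and 92.5 against 27.9, 30.2 and 150.3 RPM in C17.2b (difference 1.36, limma adjusted p = 0.152). Without the C17.2b T3 24 h library 2359 genes were called, and without the C17.2a T3 24 h library 6. Thra and Thrb themselves, at 2.39 to 4.81 and 0.831 to 2.23 RPM in the untreated libraries, did not pass the test of time (limma adjusted p = 0.155 and 0.412). The labels do not say whether their tags count the introduced tagged receptors, so these values cannot be read as the receptor levels of the lines. Rxrb, the partner of Thra and Thrb, rose by 1.12 (SE 0.13).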

How the data were processed

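RNA was measured as digital gene expression, and the table deposited by the authors holds RPM, a unit read from the values, whose columns sum to 1 common total. Per the submitters' processing notes the genome build was mm9, while no aligner, tag rule or filter is named in the labels. Between 90.8% and 93.8% of low values lay on whole steps (tolerance 0.0055 RPM), so the tag numbers could not be rebuilt and a count test was not used. The implied depth was 7.13e+06 to 1.9e+07 tags over the 12 libraries, and limits from it cover counting error only. N/A was read as 0.

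Libraries were rescaled by median ratio, then log2(rescaled RPM + 1) of genes that reached 1 RPM in 3 or more of the fitted libraries was tested with limma 3.58.1 in R 4.3.3 (lmFit, eBayes with trend, line as a block, Benjamini-Hochberg adjustment, threshold 0.05). The script was tested on simulated data. Each group had 1 library, so the spread comes from the earlier times and the lines. Of the symbols, 11975 matched GENCODE M21 on GRCm38 directly, 675 by a unique synonym, 31 in RefSeq alone and 93 not at all, and 1 tag per gene was taken from the annotated transcripts. Promoters are from RefSeq.

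The members and the 37 gene lists were chosen with earlier results of these data known, as were the tests. Genes named were the 12 highest and 12 lowest changes past the threshold, with the 24 h value on 1 side of both earlier values in each line and a mean of at least 5 RPM, up to 4 members of a list by smallest p, and the 5 smallest p of other comparisons. Pathway members named beyond these (such as Insig1, Cdk1, Ccna2, Ccnb1, Pcna, Mcm5, Tk1, Asns, Psat1, Hspa9, Hspa5, Mdm2, Fn1) were chosen after their values were seen. Alternatives covered scaling, filter, pseudocount (0.5 and 5), libraries left out, the line block, time coding and, added after seeing the data, tag G and C, shared tags and RPM without the tail-tag symbols. Some genes that the rule names are not reported here.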

Additional observations from a re-analysis of the deposited data

Results flagged for a closer look

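The change at 24 h differed between the lines for 14 genes by the limma test of the difference itself, each value being the C17.2b change less the C17.2a change on the log2 scale. It was lower in C17.2b for Cav1 (-3.24), Rbm3 (-2.52), Fam89b (-3.90), Sec61b (-2.41), Sh2b3 (-2.89), Pik3c3 (-3.62), Ppfibp1 (-2.95) and Fbxo7 (-2.36). It was higher in C17.2b for Ces1g (1.99), Gad2 (2.88), Veph1 (2.69), Mfsd4 (2.63), Camk4 (2.72) and Hyal1 (2.74). Of these, Camk4, Gad2, Hyal1, Mfsd4 and Veph1 moved as one. A repeat tag found in 192 genes is held by 4 of these 5, so they are not read as 5 separate changes. Fam89b, whose tag is annotated for 2 genes, was at 13.4, 22.9 and 55.1 RPM in C17.2a and at 27.6, 24.6 and 4.48 RPM in C17.2b. Each rests on 1 library at 24 h per line.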

How the results depend on the processing

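No paired analysis was possible because no group had replicate libraries whose numbers could pair them. Line was a block in the fit, and without it 4773 genes were called at 24 h in untreated cells. The count of genes called at 24 h in untreated cells stayed within 1.5 times of 5812 under every scaling, filter, pseudocount, time coding and block tried (4374 to 6382) and ran from 3674 to 5586 with 1 library left out, the lowest without the C17.2a 24 h library. For 12 h against 6 h it ran from 0 to 81 with 1 library left out and was 0 otherwise. The difference between lines gave 31 on RPM as deposited, 4 with quantile normalization, 0 without a filter, 1 each with a filter at 5 RPM, a pseudocount of 5 and the adjustment for tag G and C, and 0 to 349 with 1 library left out (0 without the C17.2b 6 h or 12 h, 277 without the C17.2a 12 h, 349 without the C17.2a 6 h library). The 24 h libraries could not be left out there. In T3 cells the count ran from 1776 to 3820 with 1 library left out, and was 1918 without the C17.2a 12 h and 1776 without the C17.2b 6 h library. The difference between T3 and untreated gave 1 with quantile normalization and 0 to 2359 with 1 library left out. The cause was not tested. Of 163 genes checked one by one none reversed, 133 kept their side of the threshold throughout and 30 did not under at least 1 setting. No group had a second library, and at 24 h the depth puts 3 tags at 0.306 to 0.407 RPM.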

Other observations

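Further lists had members that moved in both directions in the untreated libraries at 24 h, where 27.6% of all genes were higher and 29.4% lower. Glycolysis had 3 higher and 7 lower of 22 (median -0.02): Pkm2, pyruvate kinase, was at 1248, 1443 and 370.1 RPM in C17.2a and at 856, 1034 and 233 RPM in C17.2b (log2 -1.93, SE 0.15), while Pgam1, phosphoglycerate mutase, rose by 1.03 (SE 0.14). Targets of the oxidative stress factor NRF2 had 6 higher and 10 lower of 21: Gclm, of glutathione synthesis, fell by 1.71 (SE 0.13) and Gstm1, a glutathione transferase, went from 29.3 and 21.8 to 117 RPM in C17.2a and from 15.5 and 16.1 to 78.5 RPM in C17.2b (log2 2.21, SE 0.15). Autophagy genes had 8 higher and 9 lower of 23: Gabarapl1, which coats autophagosomes, went from 80.0 and 79.1 to 16.3 RPM and from 80.7 and 91.7 to 16.9 RPM (log2 -2.25, SE 0.12), and Atg12, of the conjugation system, rose by 1.73 (SE 0.15).

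Hypoxia genes had 6 higher and 12 lower of 25 with a median of -0.20, and 7 higher and 6 lower after the adjustment for tag G and C. Their median was 0.31 on RPM as deposited, where that of all genes was 0.44. Targets of FOXO factors and genes of growth arrest had 2 higher and 9 lower of 23. Of the clock, Nr1d2 fell by 1.31 (SE 0.27) and Tef went from 6.79 and 12.6 to 45.4 RPM in C17.2a and from 11.8 and 17.4 to 40.4 RPM in C17.2b (log2 1.80, SE 0.27). Among growth factor receptors Fgfr1 rose by 1.34 (SE 0.12) and Met fell by 1.44 (SE 0.14). Among matrix proteases and inhibitors Timp1 fell by 1.74 (SE 0.12). Ribosome biogenesis had 7 higher and 12 lower of 28, and 6 and 10 after the adjustment for tag G and C. Mybbp1a, the member with the smallest p, was 1 of the 47 symbols that follow the tail tag and is not read as a gene's change.

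The remaining lists are given by their counts at 24 h, beside 27.6% higher and 29.4% lower of all genes. Targets of serum response factor and actin genes had 8 higher and 7 lower of 21, G1 cyclins, kinases and inhibitors 3 and 2 of 13, fatty acid oxidation 4 and 6 of 21, and apoptosis regulators 3 and 4 of 19. Interferon and MHC class I genes had 5 higher and 6 lower of 21, chemokines, cytokines and complement 2 and 3 of 15, clock genes 3 and 3 of 13, growth factor receptors 4 and 3 of 16, matrix proteases and inhibitors 4 and 6 of 16, and Wnt, Notch and hedgehog targets 4 and 2 of 15. Neuronal markers had 3 higher and 2 lower of 9, astrocyte markers 3 and 4 of 9, oligodendrocyte markers 1 and 3 of 6, mesenchymal markers 2 and 1 of 10, and thyroid hormone receptors and partners 1 and 2 of 13. No blood, microglial or endothelial marker reached the level for a test.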
